A study of Mus musculus with 35 samples.

Results

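Fgfbp1, the gene of a secreted carrier of fibroblast growth factors (FGFs), and the FGF receptor genes Fgfr1, Fgfr2, Fgfr3 and Fgfr4 were followed through all libraries of a study of mouse colon tumour organoids. The 5 genes were taken by name from a table of 54354 genes. Fgfbp1 and Fgfr2 had enough reads to be tested, and Fgfr1, Fgfr3 and Fgfr4 did not pass the filter on low counts in the palmitic acid or the carmofur fit. Organoids are epithelial cultures grown as small three-dimensional bodies. All libraries, controls included, carry the genotype label AKP and the cell type label tumor. Polyadenylated RNA was sequenced from organoids given palmitic acid (PA), a saturated fatty acid from which cells build ceramides, in PA batch 1 (3 libraries) and PA batch 2 (2 libraries), and from their PA controls (3 libraries). It was also sequenced from organoids given carmofur, an inhibitor of the ceramidases that break ceramides down (15 libraries), and from carmofur controls (12 libraries). The study asked how fatty acid and ceramide levels change the organoid transcriptome. Whether a change with carmofur runs through ceramides or through another action of the drug was not tested. The labels give no dose or time, and place the PA controls in neither batch, so that a batch and its treatment cannot be told apart. Nor do they say whether libraries of a group are different cultures, and any p-value given here rests on a spread between libraries that may be technical only.

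FGFs are secreted ligands, and many of them stay bound to heparan sulfate chains on proteoglycans at the cell surface and in the matrix. FGFBP1 binds such FGFs and carries them off in a soluble, active form, and the receptors are tyrosine kinases that take up the ligand together with heparan sulfate and signal through the adaptor FRS2 to the RAS-ERK cascade. In the intestine, the epithelial splice form of Fgfr2 is known as the receptor of FGF7 and FGF10 made by the mesenchyme.

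Fgfbp1 (ENSMUSG00000048373) lies at chr5:43978858-43981779 on the minus strand of mm10 in GENCODE M21, and Fgfr2 (ENSMUSG00000030849) at chr7:130162451-133123350, also on the minus strand. Fgfr2 has 27 annotated transcripts and Fgfbp1 has 3. The RefSeq span of Fgfr2 ends at 130266808, far short of the GENCODE span, which runs over other genes. Fgfr1 (ENSMUSG00000031565) lies at chr8:25513654-25575718, Fgfr3 (ENSMUSG00000054252) at chr5:33721674-33737068 and Fgfr4 (ENSMUSG00000005320) at chr13:55152640-55168759, all on the plus strand. RefSeq promoter windows of GRCm38.p6, from 250 bases before the start to 50 after it, were found for 4 of the 5 genes, with 2 entries for Fgfr3. Those of Fgfbp1 (chr5:43981750-43982049, minus strand) and Fgfr2 (chr7:130266759-130267058, minus strand) are shown because these are the 2 genes whose levels the results turn on. Capitals mark motif matches, and both run 5′ to 3′.
Fgfbp1: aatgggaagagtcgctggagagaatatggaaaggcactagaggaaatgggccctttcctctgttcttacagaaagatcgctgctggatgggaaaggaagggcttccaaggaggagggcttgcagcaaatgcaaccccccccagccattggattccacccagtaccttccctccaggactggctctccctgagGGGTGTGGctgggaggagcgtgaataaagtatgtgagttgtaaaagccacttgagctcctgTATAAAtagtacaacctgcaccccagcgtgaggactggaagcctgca
Fgfr2: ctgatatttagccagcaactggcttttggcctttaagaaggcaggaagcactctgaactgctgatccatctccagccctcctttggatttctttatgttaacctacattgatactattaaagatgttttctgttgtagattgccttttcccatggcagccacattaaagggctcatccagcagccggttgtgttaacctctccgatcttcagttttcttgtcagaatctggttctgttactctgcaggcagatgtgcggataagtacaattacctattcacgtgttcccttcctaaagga

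Both strands of each window were searched for the TATA box TATAAA, the AP-1 site TGANTCA, the GC box GGGCGG, the TCF/LEF core CTTTGA and the CACCC box GGGTGNGG. The Fgfbp1 window held 1 TATAAA and 1 GGGTGNGG, which do not overlap. Its TATAAA begins at base 4 after the start site that the window is built on, and its GGGTGNGG begins at -58 from the same site. The annotated starts of Fgfbp1 differ: the GENCODE gene starts 17 bases downstream of the first base of TATAAA, at 43981779, and the RefSeq gene span starts upstream of it, at 43981828. Over 32851 mouse promoter windows of the same length, 13.6% held TATAAA and 16.6% held GGGTGNGG. The Fgfr2 window held none of the 5 motifs. By contrast, the Fgfr4 window held 4 GC boxes and the Fgfr3 windows 4 and 2, of a motif found in 35.7% of all windows. G and C made up 53.3% of the Fgfbp1 window and 43.7% of the Fgfr2 window, against 65.3% for Fgfr4 and 69.7% and 73% for Fgfr3. A match is a run of letters, and its use by any factor was not measured.

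Library totals were 2138905 to 2845017 counts in PA batch 1, 2406582 to 3742289 in PA batch 2 and 762888 to 2511723 in the PA controls, and 3127275 to 10609563 with carmofur against 1663750 to 8124707 in carmofur controls. At these depths 3 counts, taken as the limit that a count of 0 allows, are worth 0.292 to 3.87 CPM (counts scaled to a fixed library total), which covers counting error only. Carmofur control 1, carmofur 8 and carmofur 10 stood apart in principal components in an earlier analysis, and carmofur results are given with them and, where named, without them. Epithelial markers (10 genes) summed to 1160 to 2660 CPM per library. The 11 markers of fibroblasts and mesenchyme summed to 0 to 6.84 CPM, with Col1a1, Col1a2, Lum, Pdgfrb and Thy1 at 0 in every library. The 10 immune markers summed to 59.5 to 272 CPM, carried by Cd14 and Cd68, with Cd3e, Csf1r and Tyrobp at 0. The 7 endothelial markers summed to 5.88 to 21.6 CPM, carried by Pecam1, with Cdh5, Kdr, Cldn5 and Plvap at 0. Of these markers, 9 epithelial, 2 immune, 1 endothelial and 0 mesenchymal genes had enough reads to be tested in each comparison. Over all tested genes, 0.559% were called in PA batch 1, 0.325% in PA batch 2 and 9.02% with carmofur. Among the tested markers, 1 passed the adjusted threshold in any comparison with a control. This was Krt20, a keratin of differentiated colonic epithelium, at 30.5 ± 10.1 CPM with carmofur (SD, n = 15) and 4.24 ± 4.15 CPM in its controls (SD, n = 12), a log2 fold change of 2.82 ± 0.51 (SE, edgeR adjusted p = 0.000101).

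Per kilobase of exon, Fgfbp1 stood far above every receptor gene. Its level averaged 32.6 ± 9.83 CPM per kb in PA batch 1, 29.6 ± 6.31 in PA batch 2 and 86.8 ± 8.19 in PA controls, and 63.1 ± 18.5 with carmofur against 69.5 ± 20.5 in carmofur controls (SD). Fgfr2 was next at 1.22 ± 0.42, 0.413 ± 0.213 and 0.866 ± 0.935 CPM per kb in PA batch 1, PA batch 2 and PA controls, and at 0.455 ± 0.407 with carmofur against 1.57 ± 0.896 in carmofur controls. In carmofur controls Fgfr4 followed at 0.316 ± 0.423, Fgfr3 at 0.194 ± 0.328 and Fgfr1 at 0.00869 ± 0.0145 CPM per kb. There the gaps between Fgfr4 and Fgfr3 and between Fgfr3 and Fgfr1 were smaller than the SD of the higher gene of the pair, and the gaps above them were larger than either SD. In PA controls Fgfr3 averaged 0.112 ± 0.143 and Fgfr1 0.0152 ± 0.0263 CPM per kb, and Fgfr4 had no count. Levels of genes can be compared only on this scale, and all CPM below are within a gene.

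Fgfbp1, the carrier, was lower in both PA batches and lay in the range of its controls with carmofur. In PA batch 1 it measured 90.5, 82.5 and 48.6 CPM, in PA batch 2 it measured 77.2 and 57 CPM, and in PA controls 215, 178 and 196 CPM. All 5 PA libraries lay below all 3 controls, and the highest PA library was at 90.5 CPM against the lowest control at 178. The means were 73.8 ± 22.3 CPM in PA batch 1 and 67.1 ± 14.3 CPM in PA batch 2, against 196 ± 18.5 CPM in PA controls (SD, n = 3, 2 and 3). The log2 fold change was -1.40 ± 0.21 (SE) in PA batch 1, or 2.64-fold lower, and -1.54 ± 0.24 in PA batch 2, or 2.91-fold lower. Fgfbp1 was selected on its low measured level in PA against PA controls, and the receptor genes were chosen by name as its partners with their values known; both batches share the controls, so these values describe the choice and carry no test. The whole-table fit called 0.244% of 9845 tested genes lower in PA batch 1 and 0.142% in PA batch 2, and the libraries did not overlap with those of the controls, on the lower side, for 6.12% and 9.02% of the genes. In bulk RNA, fewer cells that make a transcript and less of it per cell cannot be told apart.

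The batches lay close together for Fgfbp1. PA batch 2 minus PA batch 1 gave a log2 difference of -0.14 ± 0.235 (SE, 95% interval -0.60 to 0.33), a contrast in which no control enters. The libraries overlapped, since both PA batch 2 values fell between the lowest and the highest PA batch 1 value.

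**Figure D1:**
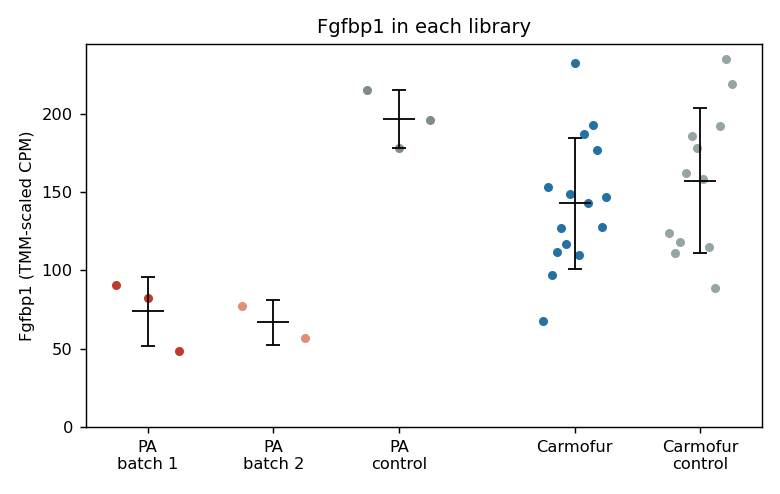
Fgfbp1 in TMM-scaled CPM (y axis, from 0) in each library of the 5 groups (x axis), 1 point per library, with the mean as a horizontal line and ±1 SD as bars. The 5 PA libraries lie between 48.6 and 90.5 CPM, below the 3 PA controls at 178 to 215 CPM, while carmofur libraries (68 to 232 CPM) and carmofur controls (88.9 to 235 CPM) overlap.

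Under carmofur, Fgfbp1 ran from 68 through a median of 143 to 232 CPM in 15 libraries, against 88.9 through a median of 160 to 235 CPM in 12 controls. The groups overlapped almost fully: 14 of the 15 carmofur libraries lay within the range of the controls and 1 lay below it. The means were 143 ± 41.9 CPM with carmofur and 157 ± 46.4 CPM in controls (SD), a log2 fold change of -0.14 ± 0.156 (SE) that did not pass the threshold (edgeR quasi-likelihood test, Benjamini-Hochberg adjusted p = 0.728, with 9.02% of 9992 tested genes called). Without the 3 libraries that stood apart it was -0.27 ± 0.156 (adjusted p = 0.359). The 95% interval of the fold, all libraries kept, runs from 0.728 to 1.13. The carmofur effect minus the mean PA effect was 1.34 on the log2 scale, with an SE of 0.323 and a 95% interval of 0.69 to 1.99. That difference contains the PA contrast for which Fgfbp1 was chosen and is given as a description.

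In the carmofur labels the library numbers run in 9 consecutive triplets, here called sets, within 3 blocks that span 12 numbers each, and neither is said there to be a batch. Fgfbp1 differed between control sets more than between treatments. The control sets 1, 4, 7 and 9 averaged 118, 175, 121 and 216 CPM, and the carmofur sets 2, 3, 5, 6 and 8 averaged 106, 119, 164, 174 and 151 CPM. Within block 1 Fgfbp1 averaged 112 ± 28.6 CPM with carmofur and 118 ± 6.58 CPM in controls (SD). Within block 2 it averaged 169 ± 43.5 CPM with carmofur and 175 ± 12.3 CPM in controls, and within block 3 it averaged 151 ± 24.9 CPM with carmofur and 168 ± 58.1 CPM in controls. In each block the means lay within 1 SD of each other. Without control set 9, the highest, the log2 fold change was 0.015 in place of -0.14.

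**Figure D2:**
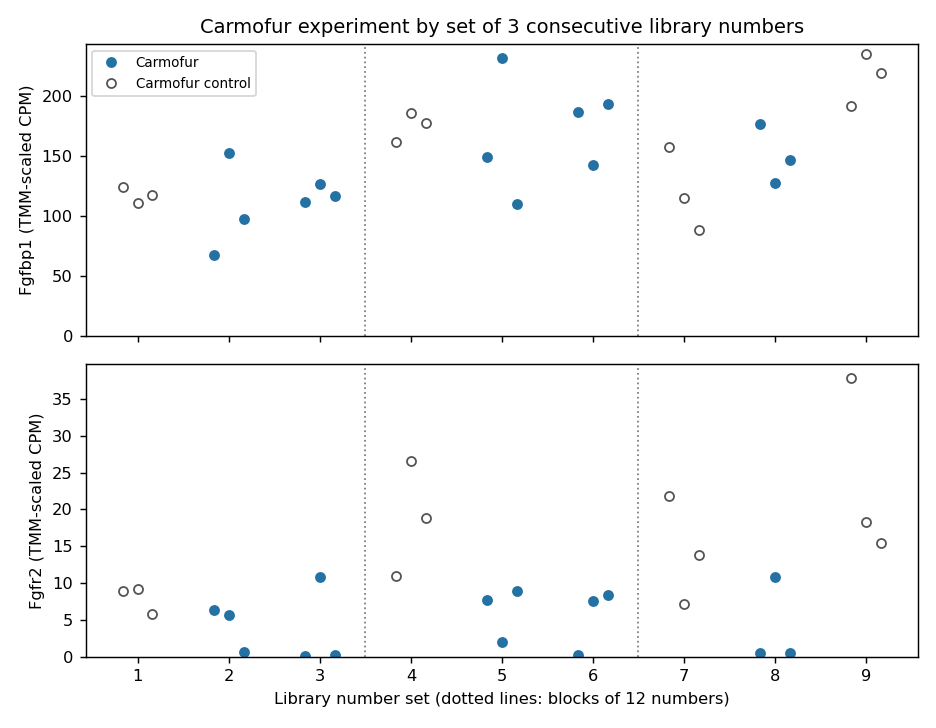
Fgfbp1 (top) and Fgfr2 (bottom) in TMM-scaled CPM (y axes, from 0) in the 27 libraries of the carmofur experiment, by set of 3 consecutive library numbers (x axis), with filled points for carmofur, open points for controls and dotted lines between the blocks. Fgfbp1 shifts from set to set in both groups, with control set 9 averaging 216 CPM, and Fgfr2 with carmofur stays at or below 10.8 CPM in every set.

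Fgfr2, which had the highest level per length of the genes Fgfr1 to Fgfr4, was lower with carmofur. It ran from 0.127 through a median of 5.66 to 10.8 CPM in 15 carmofur libraries, against 5.79 through a median of 14.6 to 37.8 CPM in 12 controls. Of the carmofur libraries, 8 lay below the lowest control and 7 within the control range, and no carmofur library exceeded 10.8 CPM. The means were 4.7 ± 4.2 CPM with carmofur and 16.2 ± 9.26 CPM in controls (SD), a log2 fold change of -1.78 ± 0.562 (SE), or 3.43-fold lower, with an edgeR adjusted p of 0.0369. It was the 1 member called of 2 tested, where 3.8% of all genes tested were called lower. The reads behind it were few: 1 to 80 counts per carmofur library, 5 of them with 3 counts or fewer, and 15 to 282 counts per control library. Counts could also differ widely at like depth. In set 3, carmofur 4 had 1 count in a total of 7350705 and carmofur 5 had 80 in 7314997. The source of this spread was not tested.

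The low carmofur values of Fgfr2 did not gather in 1 set of libraries. Set 2 measured 6.29, 5.66 and 0.667 CPM, set 3 measured 0.127, 10.8 and 0.214 CPM, and set 5 measured 7.69, 1.94 and 8.95 CPM. Set 6 measured 0.267, 7.59 and 8.45 CPM and set 8 measured 0.486, 10.8 and 0.539 CPM, so that every carmofur set held at least 1 library below 2 CPM and 1 above 6 CPM. Within block 1 Fgfr2 averaged 3.96 ± 4.35 CPM with carmofur and 7.96 ± 1.89 CPM in controls, within block 2 it averaged 5.82 ± 3.72 CPM with carmofur and 18.8 ± 7.82 CPM in controls, and within block 3 it averaged 3.95 ± 5.95 CPM with carmofur and 19 ± 10.4 CPM in controls (SD). The mean was lower with carmofur in all 3 blocks, with log2 fold changes of -1.02, -1.67 and -2.27, and none of these passed the threshold when a block was fitted alone (edgeR adjusted p = 0.844, 0.461 and 0.258). With limma-voom the log2 fold change was -2.71 (adjusted p = 0.00149). With the block as a covariate it was -1.65 and the adjusted p was 0.0916. Without the 3 libraries that stood apart it was -1.68 (adjusted p = 0.0541). The call was also lost without set 2, 4, 7, 8 or 9. Over the 9 sets left out in turn, the edgeR adjusted p ran from 0.0297 to 0.15. The Krt20 rise given above runs along with this fall, and its part in the result was not tested.

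In palmitic acid Fgfr2 showed no change past the threshold. It measured 15.9, 14.2 and 7.69 CPM in PA batch 1, 2.71 and 5.82 CPM in PA batch 2, and 0, 19.2 and 7.65 CPM in PA controls. The PA controls spread over the whole range of both batches, and the library at 0 CPM is the shallowest, where 3 counts are worth 3.87 CPM. The log2 fold change was 0.38 ± 0.721 (SE, 95% interval -1.05 to 1.82, edgeR adjusted p = 0.98) in PA batch 1 and -1.20 ± 0.857 (95% interval -2.90 to 0.51, adjusted p = 0.903) in PA batch 2. Without that shallow control the value in PA batch 1 was -0.10. PA batch 2 lay below every PA batch 1 library, with a log2 difference of -1.58 ± 0.86 (95% interval -3.29 to 0.13, edgeR adjusted p = 1, with 0.102% of genes called), and 8.7% of all genes lay likewise below. Without PA control 2, at 19.2 CPM, the values were 1.47 in PA batch 1 and -0.099 in PA batch 2. The carmofur effect minus the PA effect was -1.41 with an edgeR adjusted p of 0.996 (0.818% of 14052 genes called), so a difference between the treatments was not detectable for Fgfr2.

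**Figure D3:**
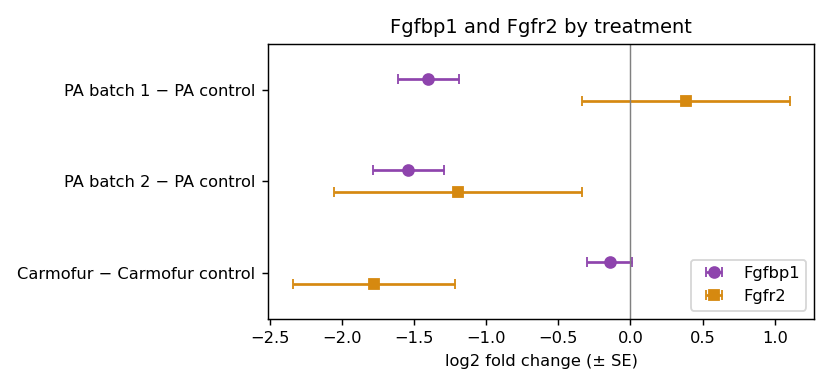
Log2 fold change (x axis, points, with ±1 SE bars) of Fgfbp1 (circles) and Fgfr2 (squares) in PA batch 1, PA batch 2 and carmofur (y axis), each against its own control. Fgfbp1 sits at -1.40 and -1.54 in the PA batches and at -0.14 with carmofur, and Fgfr2 sits at 0.38, -1.20 and -1.78.

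Fgfr1, a receptor known mainly from mesenchymal cells, was close to absent and had more reads with carmofur. It had 63 counts in all in 15 carmofur libraries, from 0 to 12 per library, and 5 counts in 12 controls, from 0 to 2 per library. It was above 3 counts in 7 carmofur libraries and in 0 controls, and 8 carmofur libraries exceeded the highest control. The means were 0.629 ± 0.586 CPM with carmofur and 0.0858 ± 0.143 CPM in controls (SD). The filter on low counts left Fgfr1 out, and a fit with no filter gave a log2 fold change of 2.63 with an edgeR adjusted p of 0.0946, in which 14.7% of 24076 genes were called. In palmitic acid it had 3 counts over PA batch 1, 0 over PA batch 2 and 1 over the PA controls. The carmofur libraries held 0 to 4.41 CPM of the 11 mesenchymal markers in sum and the controls 0 to 6.84 CPM. Col1a1, Col1a2, Lum, Pdgfrb, Thy1 and Des were at 0 in both groups. Col6a2 and Acta2 had counts with carmofur only, Col3a1 in controls only, and Dcn and Pdgfra in both. Whether these traces go along with Fgfr1 was not tested.

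Fgfr3 and Fgfr4 had few reads, and many libraries had none. Fgfr3 had 115 counts over the carmofur libraries, at 0 in 8 of 15 and up to 64, and 103 counts over the controls, at 0 in 8 of 12 and up to 50. Fgfr4, the receptor of bile-acid-regulating FGF15 in mouse liver, had 73 counts with carmofur, at 0 in 4 of 15 libraries and up to 26, and 78 counts in controls, at 0 in 6 of 12 and up to 25. Both genes thus ranged widely inside either group. In palmitic acid Fgfr3 had 7, 1 and 5 counts in PA batch 1, 1 and 1 in PA batch 2, and 0, 5 and 1 in PA controls, and Fgfr4 had 1 count in PA batch 1 and 0 elsewhere. With no filter on low counts, the edgeR adjusted p was 0.96 for Fgfr3 and 0.918 for Fgfr4 under carmofur.

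**Figure D4:**
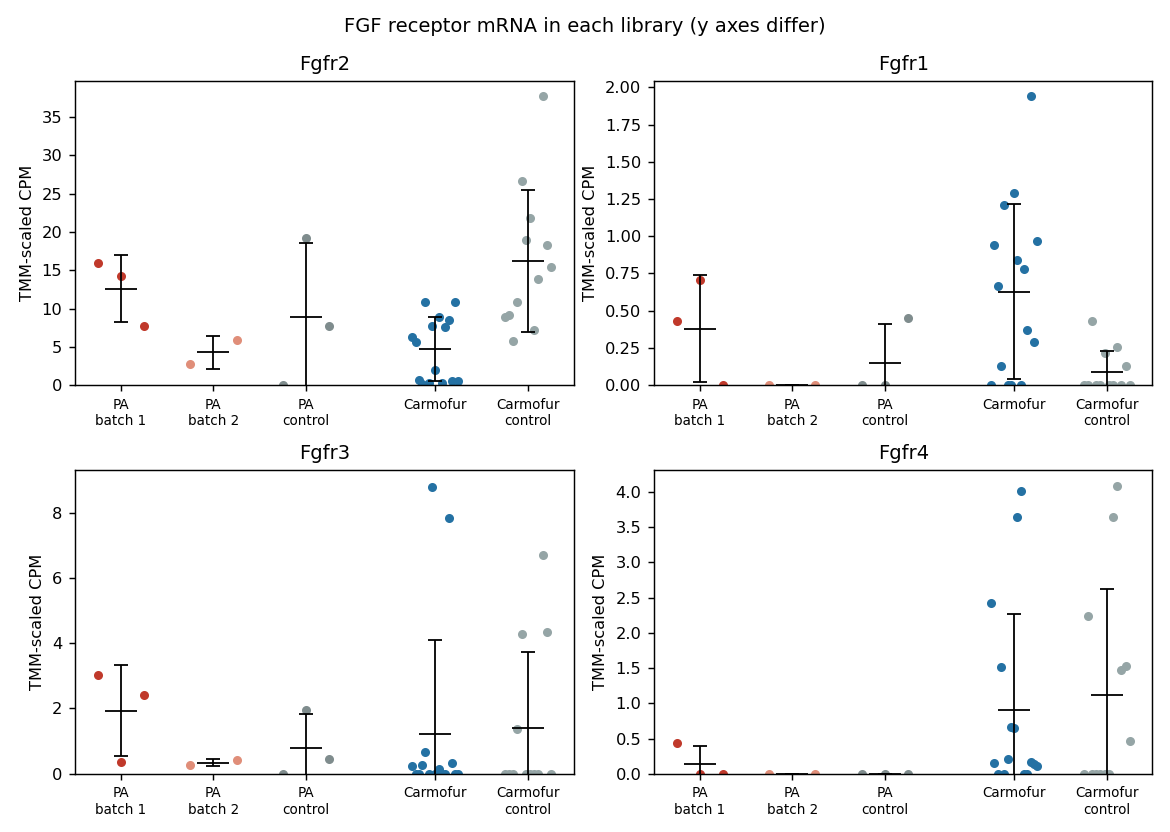
The 4 receptor genes in TMM-scaled CPM (y axes, from 0, with a different scale in each panel) in each library of the 5 groups (x axes), with the mean as a horizontal line and ±1 SD as bars. Fgfr2 averages 4.7 CPM with carmofur and 16.2 CPM in carmofur controls, and the other receptor genes stay below 9 CPM in every library.

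Most genes of the FGF family had few or no reads in these cultures. Of 22 such genes, intracellular relatives such as Fgf13 included, 9 had no count in all 35 libraries and 11 exceeded 3 counts in at least 1 library. Fgf7, a known cargo of FGFBP1 and ligand of epithelial Fgfr2, had 2 counts over all libraries, and Fgf10, another such ligand, had 0. Fgf2, the best studied cargo, had 30 counts, all in 1 library. Fgf1, also a cargo, had 404 counts and was above 3 counts in 15 of 35 libraries. It averaged 0.422 ± 0.0639 CPM in PA batch 1, 2 ± 1.29 CPM in PA batch 2 and 0.15 ± 0.26 CPM in PA controls, and 2.64 ± 3.61 CPM with carmofur against 1.8 ± 3.22 CPM in carmofur controls (SD), and it did not pass the filter of either fit. Fgf20, a secreted ligand of the Fgf9 subfamily, and Fgf13, an intracellular relative that is not secreted, were above 3 counts in 19 and 18 of 35 libraries. Fgf20 averaged 5.48 ± 4.77 CPM in PA batch 1, 8.79 ± 5.96 CPM in PA batch 2 and 1.85 ± 2.82 CPM in PA controls, and 4.55 ± 5.19 CPM with carmofur against 4.29 ± 4.75 CPM in carmofur controls (SD). None of these differences passed the threshold, with edgeR adjusted p of 0.849, 0.761 and 0.984, and Fgf13 gave 0.907 for carmofur, the comparison in which it was tested. Fgfrl1, the receptor-like decoy without a kinase, averaged 40.5 ± 11 CPM in PA batch 1, 29.8 ± 5.7 CPM in PA batch 2 and 33.9 ± 16.2 CPM in PA controls. With carmofur it averaged 21.8 ± 12.8 CPM against 42.3 ± 17.1 CPM in controls, a log2 fold change of -0.96 ± 0.323 (SE) with an edgeR adjusted p of 0.0545. DESeq2 put that adjusted p at 0.0306 and limma-voom at 0.00687, and over all alternatives it ran from 0.0039 to 0.834.

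Of 13 genes of heparan sulfate proteoglycans, which hold FGFs at the cell surface, 6 had enough reads to be tested. They include Sdc1 and Sdc4, syndecans of epithelial membranes. Sdc1 averaged 86.6 ± 6.12 CPM in PA batch 1, 79.8 ± 1.84 CPM in PA batch 2 and 90.6 ± 12.1 CPM in PA controls, and 127 ± 40.3 CPM with carmofur against 151 ± 26 CPM in carmofur controls (SD). None of the 6 tested proteoglycan genes passed the threshold in PA batch 1, PA batch 2 or carmofur, where 0.559%, 0.325% and 9.02% of all tested genes did. The lowest adjusted p were 0.361 for Sdc1 and 0.611 for Agrn, the gene of agrin, both with carmofur. None of the 9 or 10 tested genes of heparan sulfate synthesis and editing passed it either. Among these, Hpse, the heparanase that cuts the chains, averaged 13.1 ± 11.5 CPM with carmofur and 25 ± 16.3 CPM in controls (edgeR adjusted p = 0.355), and Glce, the epimerase of the chain, 11.8 ± 10.3 CPM with carmofur and 20.5 ± 9.42 CPM in controls (0.428). Extl3, which starts the chains, averaged 4.87 ± 2.99 CPM in PA batch 1, 5.51 ± 3.97 CPM in PA batch 2 and 1.16 ± 1.39 CPM in PA controls, with adjusted p of 0.791 and 0.849.

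Downstream of the receptors, no adaptor or effector gene passed the threshold in PA batch 1 or PA batch 2 (21 tested) or with carmofur (19 tested). Over all tested genes 0.559%, 0.325% and 9.02% passed it in these comparisons, so few or no calls are the usual outcome for a list this short in PA. Frs2, the docking protein of FGF receptors, averaged 13.6 ± 7.97 CPM with carmofur and 5.74 ± 5.22 CPM in controls (log2 fold change 1.23, edgeR adjusted p = 0.158). Cbl, a ubiquitin ligase that takes part in receptor turnover, averaged 7.1 ± 0.516 CPM in PA batch 1, 9.22 ± 4.61 CPM in PA batch 2 and 1.64 ± 1.57 CPM in PA controls, with adjusted p of 0.653 and 0.629. Of 14 tested targets and feedback genes of FGF-ERK signalling, 0 passed in either PA batch, and with carmofur 1 was higher and 1 lower, where 5.21% of all tested genes were called higher and 3.8% lower. Errfi1, a feedback inhibitor of EGF receptors, rose with carmofur to 89.4 ± 33.8 CPM, against 52.4 ± 22.9 CPM in controls (log2 fold change 0.77 ± 0.219, adjusted p = 0.0178). Etv5, a transcription factor induced by FGF signalling, fell to 9.35 ± 6.87 CPM, against 21.9 ± 7.48 CPM in controls (-1.23 ± 0.378, adjusted p = 0.0307). Errfi1 lost its call without set 4, 5, 6 or 7 and Etv5 without set 4, 5, 6, 8 or 9, with adjusted p of up to 0.111 for each. Without the 3 libraries that stood apart Errfi1 had an adjusted p of 0.0824 and Etv5 of 0.0378. In the PA libraries Etv5 averaged 19.3 ± 4.94 CPM in PA batch 1, 21.1 ± 3.75 CPM in PA batch 2 and 6.11 ± 5.33 CPM in PA controls, with adjusted p of 0.437 and 0.474. Errfi1 averaged 41.8 ± 6.66, 37.7 ± 1.01 and 64.2 ± 13.8 CPM in the same groups, with edgeR adjusted p of 0.637 and 0.618. Both genes thus leaned the other way in palmitic acid than with carmofur, without a call. The widely used ERK readout Dusp6 averaged 69.1 ± 20.5 CPM with carmofur and 58 ± 15.1 CPM in controls (adjusted p = 0.506). The median log2 fold change of the 14 genes was 0.0025 in PA batch 1, -0.32 in PA batch 2 and 0.32 with carmofur, beside 0.014, -0.010 and 0.0017 over all tested genes.

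Targets of Wnt and beta-catenin signalling gave 0 calls among 18 tested in either PA batch, and 1 higher and 1 lower among 17 tested with carmofur. Over all tested genes the calls came to 0.559% in PA batch 1 and 0.325% in PA batch 2, and with carmofur to 5.21% higher and 3.8% lower. Cd44, a surface receptor whose splice forms can carry heparan sulfate, rose with carmofur to 205 ± 51.3 CPM, against 109 ± 28.4 CPM in controls (log2 fold change 0.91 ± 0.141, edgeR adjusted p = 1.01e-05), and all 15 carmofur libraries lay above the control median. Ascl2, a transcription factor of intestinal stem cells, fell to 13.7 ± 8.2 CPM, against 31.8 ± 18.8 CPM in controls (-1.21 ± 0.389, adjusted p = 0.0417), with 14 of 15 carmofur libraries below the control median. Ascl2 kept its call without set 4 or set 5 and lost it without any other, with adjusted p of up to 0.127, and Cd44 kept it without any single set. Without the 3 libraries that stood apart Ascl2 had an adjusted p of 0.0928 and Cd44 of 8.92e-05. In palmitic acid Apcdd1, a Wnt inhibitor, averaged 50.3 ± 19.3 CPM in PA batch 1, 42.4 ± 3.62 CPM in PA batch 2 and 24.6 ± 5.9 CPM in PA controls, with adjusted p of 0.227 and 0.66. The stem cell receptor Lgr5 averaged 7.88 ± 4.79 CPM in PA batch 1 and 5.42 ± 3.65 CPM in PA controls and had no count in either PA batch 2 library, where the adjusted p was 0.0762. The median log2 fold change of the Wnt list was 0.28 in PA batch 1, 0.16 in PA batch 2 and -0.41 with carmofur.

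**Figure D5:**
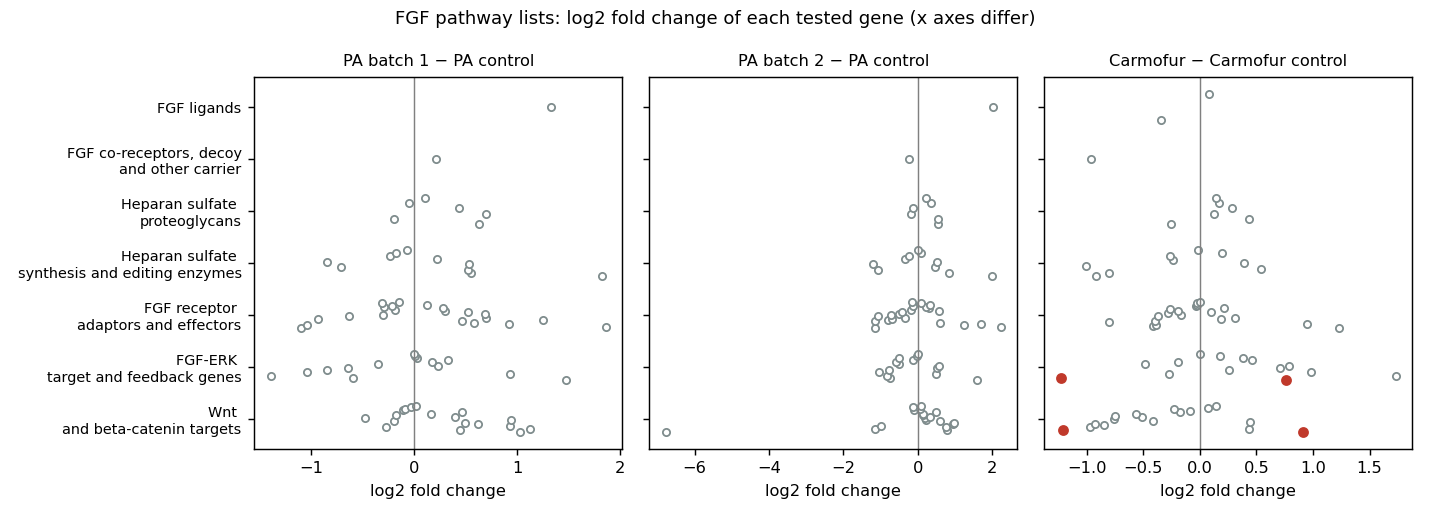
Log2 fold change (x axes, with a different scale in each panel) of each tested gene of 7 lists (y axis) in PA batch 1, PA batch 2 and carmofur, each against its own control, with filled points for an adjusted p under 0.05 and open points for the rest. The filled points are Errfi1 and Cd44 on the right and Etv5 and Ascl2 on the left, all in the carmofur panel, and the point at the far left for PA batch 2 is Lgr5, which had no count there, so that its fitted position is no measure of size.

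Over the 27 carmofur libraries, after group means were subtracted, the genes most like Fgfbp1 among 8196 compared were Nkiras1 (Pearson r = 0.761), Pglyrp1 (0.758), Slc18a1 (0.737), Rnf19b (0.719) and Tnni1 (0.709). The median r over the compared genes was 0.0085 and the 95th percentile 0.404. Without the 2 libraries farthest from the median, r was 0.599 for Nkiras1, 0.683 for Pglyrp1, 0.658 for Slc18a1, 0.59 for Rnf19b and 0.521 for Tnni1. Over the 8 PA libraries the same genes gave r of -0.477, -0.505, -0.549, 0.382 and -0.065, so that only Rnf19b of these genes had a positive r in both experiments. Tnni1 was called higher in PA batch 1 and PA batch 2 (log2 fold change 1.69 and 1.73, edgeR adjusted p = 0.00382 and 0.00955). The other genes named for Fgfbp1 were not called there, where 0.559% and 0.325% of all tested genes were. The genes most like Fgfr2 were Snx13 (r = 0.64), Atp2c1 (0.611) and Smad7 (0.577), with a 95th percentile of 0.331, and in the PA libraries they gave r of -0.090, 0.292 and -0.546. Fgfbp1 and Fgfr2 themselves had an r of 0.115. These values share libraries and depth, and the r with the log2 total count was 0.175 for Fgfbp1 and 0.281 for Fgfr2. Only group means were subtracted, so shifts between number sets remain in every r over the carmofur libraries. The named genes are the top of a ranking of 8196, which picks high r by itself. The 95th percentile is therefore no gauge for them, and no r was tested.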

How the data were processed

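Groups were taken from the labels. The authors deposited estimated counts per gene (expected counts) as whole numbers in a single table, for which the submitters' processing notes name Salmon 1.3.0 and mm10. Libraries were poly(A)-selected and strand-specific, per the labels' protocols, while no annotation release or gene-level summary step is named in the sources used here. Genes without a name (1243) held 0.0216% of the counts and were kept in the library totals. Gene positions and exon lengths come from GENCODE M21, matched by identifier for all 5 members.

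Genes were tested with the robust quasi-likelihood F test (two-sided) of edgeR 4.0.16, run in R 4.3.3 after TMM scaling and the default filter on low counts. The adjusted p (Benjamini-Hochberg, whole fit) had a threshold of 0.05. PA libraries (9845 genes tested), carmofur libraries (9992) and all 35 libraries (14052, for the difference of the effects) were fitted separately, with biological coefficients of variation of 0.407, 0.75 and 0.969. CPM are TMM-scaled. The scripts were tested on simulated data. The members and gene lists were chosen with earlier results of these data known, so no p-value here is independent of that choice. Beside the members, the text names the list members past the threshold, or the 2 with the lowest p of a list with none, with some others added for context after their values were seen, and the 5 and 3 genes with the highest r to Fgfbp1 and Fgfr2 (log2 of CPM plus 1, mean of at least 5 CPM). Over 178 pairs of libraries within groups, chi-square per degree of freedom was at least 7.4, so none was counted as a repeat. Alternatives were RLE and library-size scaling, DESeq2 1.42.0, limma 3.58.1 voom with quality weights, no filter, a mean count of 10, libraries or number sets left out, number blocks, summed sets, replicate blocks and merged PA batches.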

Additional observations from a re-analysis of the deposited data

Results flagged for a closer look

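For Fgfbp1 the carmofur effect minus the mean PA effect was 1.34 on the log2 scale, and the gap between the treatments' values is what singles it out. Fgfbp1 was lower in the 5 PA libraries than in their 3 controls, while 14 of 15 carmofur libraries lay within the range of the carmofur controls. The experiments have separate controls and different depths. The difference contains the PA contrast for which Fgfbp1 was chosen, so it is a description and shows no tested difference between treatments.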

How the results depend on the processing

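Fgfbp1 kept its direction and its size in palmitic acid under all alternatives run, from -1.57 to -1.18 in PA batch 1 and from -1.77 to -1.33 in PA batch 2. The carmofur minus PA difference of Fgfbp1 ran from 1.19 to 1.46 with each PA library left out and was 1.27 with PA batch 1 only, values that describe the choice of the gene. The carmofur value of Fgfbp1 ran from -0.26 to 0.015 with each number set left out (the highest without set 9), and its PA batch difference from -0.38 to 0.067 with each library left out. Fgfr2 in PA batch 1 ran from -0.10 to 1.47 with each library left out and was -0.089 with both batches as 1 group, and in PA batch 2 it ran from -1.81 to -0.099. Fgfr2 with carmofur stayed negative throughout, down to -2.71 with limma-voom. It missed the threshold without the 3 libraries that stood apart in an earlier analysis (-1.68, adjusted p = 0.0541), with the block covariate (-1.65), within blocks (-1.02, -1.67 and -2.27), and without set 2, 4, 7, 8 or 9 (range -2.00 to -1.57), and kept it under 7 other alternatives. The cause was not tested.

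No pairing of the samples by replicate number was seen, since no pair's deviations correlated above 0.1. Counting noise in shallow libraries lowers such correlations, so a pairing is not excluded. With the replicate block, Fgfbp1 was -1.45 in PA batch 1, -1.70 in PA batch 2, -0.25 between batches and -0.17 with carmofur, and Fgfr2 was 0.71, -1.18, -1.88 and -2.16, the last with an adjusted p of 0.0627. Among other genes, with carmofur and each number set left out, Cd44 passed in 9 of 9 cases, Errfi1 in 5, Etv5 in 4 and Ascl2 in 2. Over 13 other alternatives, within-block fits included, Cd44 missed the threshold in 2, Errfi1 in 5, Etv5 in 5 and Ascl2 in 9, with adjusted p of up to 0.0971, 0.841, 0.951 and 0.867. The filter removes Fgfr1, Fgfr3 and Fgfr4, whose few counts limit what can be said. Counts of all genes past the threshold moved by more than 1.5 times in several alternatives: no filter gave 3541 in place of 901 for carmofur, summed sets 334, and blocks alone 234, 512 and 588. DESeq2 gave 55 in place of 32 for PA batch 2 and, for the difference, 224 in place of 115 against 271 with limma-voom. No filter gave 19 in place of 10 between PA batches. Leaving out a PA library gave as few as 21 in place of 55 for PA batch 1, 2 in place of 10 between batches and 31 in place of 115 for the difference. Of 371 list counts compared, 324 stayed within 1.5 times and 47 moved.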
